A study of Mus musculus with 26 samples.

Results

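Krüppel-like factors are transcription factors that bind GC-rich and CACCC-type DNA through zinc fingers at their C-terminal end, and they share these fingers with the SP proteins. Their N-terminal parts differ. Klf2, Klf4, Klf5, Klf6 and Klf7 mostly activate transcription, Klf3 recruits the CtBP corepressors, and Klf9, Klf10, Klf11 and Klf13 recruit the SIN3A corepressor. Several family members are induced quickly by serum, growth factors, TGF-beta, glucocorticoids or the daily clock. In the lung, Klf5 is known for its part in epithelial maturation and repair, Klf2 for late lung development and for quiet endothelium and lymphocytes, and Klf4 for epithelial differentiation.

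The genes described here were 10 members of this family, Klf2, Klf3, Klf4, Klf5, Klf6, Klf7, Klf9, Klf10, Klf11 and Klf13, chosen by symbol from the 55391 rows of the count table that name a gene. All 10 were among the 14264 genes that passed the filter on low counts, so none was left out of a test. RNA came from EA1, EA2 and EA3, which are mouse lung cancer cell lines from tumors in which Cas9 and guides against Eml4 and Alk had made the Eml4-Alk fusion in the lungs of C57BL/6 mice. EA1 came from a mouse with wild-type Trp53, and EA2 and EA3 came from Trp53-null mice. Each line was cultured with 100 nM alectinib, an inhibitor of the ALK kinase, or with 0.1% DMSO, the solvent. RNA was sequenced after 1, 2, 3 and 5 days, with 1 library per line, treatment and day, which gave 24 libraries in 6 groups of 4. A genotype of Trp53 cannot be told apart from the line, and each line is a single line from a tumor.

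The days are those of the sample labels. The treatment protocol lists days 1, 3, 5 and 7 and not day 2, so the day of a library, on which the changes per doubling of days rest, carries this doubt. No library was repeated within a day, so the 4 days of a line served as its replicates, and nothing in the sources says that the dishes were separate experiments. The p-values of the alectinib effect then measure how the ratio of alectinib to DMSO varied between days, with the spread estimated over all lines together. A change of the effect with days counts as spread in them. In DMSO alone the p-values measure the spread between libraries. Library totals ran from 5780062 to 11732401 counts with a median of 9252878. Levels are given in CPM, the counts of a gene as a share of its library total scaled by TMM factors, and the fold changes are log2 values of alectinib against DMSO from edgeR's quasi-likelihood test, with p-values adjusted by Benjamini-Hochberg over all genes tested and a threshold of 0.05. In bulk RNA a lower level may come from fewer cells that express a gene or from less of its RNA per cell, which cannot be told apart here. Of the leukocyte markers, Ptprc reached at most 4 counts in a library, Cd3e 1 count, Lyz2 10 counts and Csf1r 73 counts, while Cd68 reached 871 counts (87.3 CPM) in EA2 DMSO and 556 counts (91.6 CPM) in EA3 DMSO. Of the endothelial markers, Pecam1 reached 40 counts, Cdh5 58, Kdr 54 and Tek 3. Of the epithelial markers, Krt8, Krt18, Krt19 and Cdh1 were detected in every group, while Epcam was at 0 counts in all 4 EA2 alectinib libraries and at 7 counts or fewer in EA2 DMSO. Of the alveolar type 2 markers, Sftpc reached at most 1 count, Nkx2-1 7 and Lamp3 4, while Abca3 reached 1718 counts (186 CPM) in EA3 with alectinib. The summed level of 6 fibroblast markers was higher with alectinib in each line without overlap, at 2.14 to 7.24 CPM in EA1 DMSO and 58.3 to 327 with alectinib, 58.4 to 71.5 and 122 to 239.6 in EA2, and 10.2 to 20.2 and 84.7 to 267 in EA3. The 6 fibroblast markers did not move alike. The gene with the highest CPM with alectinib was Col3a1 in EA1 (44.2 to 254), Dcn in EA2 (32.5 to 164) and Col1a1 in EA3 (77.8 to 180). Dcn overlapped its DMSO range in EA2 (37.3 to 54.4), Pdgfra overlapped in each line, and Lum reached at most 1 count in EA2 and EA3. The summed level of 5 leukocyte markers overlapped between treatments. Mitochondrial genes held 1.19% to 1.97% of the counts in EA1 DMSO and 2.35% to 2.77% with alectinib, without overlap, 1.38% to 2.02% and 1.45% to 2.43% in EA2, and 1.49% to 2.71% and 2.50% to 3.85% in EA3. The part of these shifts in the results below was not tested.

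The promoters of Klf2, Klf6 and Klf9 are shown because their alectinib effects differed between lines or were called in a single line, and because they differ in the short motifs they hold. Each window of 300 bases lies mostly before the RefSeq start site and reaches a little past it, in GRCm38.p6, 5′ to 3′ on the strand of the gene, and capitals mark motif matches on either strand. The windows are chr8:72318812-72319111 for Klf2, chr13:5861239-5861538 for Klf6 and chr19:23140976-23141275 for Klf9, all on the plus strand.
Klf2: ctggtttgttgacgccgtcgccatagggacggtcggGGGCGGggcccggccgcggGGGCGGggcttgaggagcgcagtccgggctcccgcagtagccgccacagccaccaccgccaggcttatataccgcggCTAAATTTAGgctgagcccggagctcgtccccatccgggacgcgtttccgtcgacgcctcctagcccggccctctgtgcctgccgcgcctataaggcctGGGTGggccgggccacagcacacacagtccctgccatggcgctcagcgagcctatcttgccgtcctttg
Klf6: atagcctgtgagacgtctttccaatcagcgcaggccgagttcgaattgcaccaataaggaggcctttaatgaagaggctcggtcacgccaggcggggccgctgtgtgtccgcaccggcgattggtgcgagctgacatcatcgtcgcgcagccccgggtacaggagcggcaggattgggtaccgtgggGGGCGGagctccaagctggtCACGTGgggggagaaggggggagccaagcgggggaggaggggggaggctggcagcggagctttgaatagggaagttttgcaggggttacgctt
Klf9: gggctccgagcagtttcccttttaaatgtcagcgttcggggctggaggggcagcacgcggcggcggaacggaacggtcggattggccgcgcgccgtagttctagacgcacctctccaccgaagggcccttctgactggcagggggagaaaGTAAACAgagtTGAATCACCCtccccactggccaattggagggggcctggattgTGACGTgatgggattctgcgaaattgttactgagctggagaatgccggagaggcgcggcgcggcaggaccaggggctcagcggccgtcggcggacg
In Klf2 the capitals are GGGCGG at positions -214 and -195 from the start site, a MEF2 box, the AT-rich site of the MEF2 factors, from -118 to -109, and CACCC, read on the other strand, at -19. In Klf6 they are GGGCGG at -63 and CACGTG at -43. In Klf9 they are GTAAACA at -100, TGANTCA at -89, which overlaps CACCC at -84, and TGACGT at -46. The promoter table held 8 of the 10 members, all but Klf5 and Klf10. GGGCGG, the core of the GC box, was in 7 of the 8 windows against 35.7% of all 32851 promoters in the table. CACCC was in 5 of 8 against 57.5%, CACGTG in 3 against 7.15%, TGACGT in 2 against 7.51%, and TGANTCA in 1 against 7.81%. A window with GTAAACA was found for 1 gene against 3.65% of promoters, and 1 with the MEF2 box against 1.86%. The CArG box, the serum response factor motif, was in 0 of 8 against 1.63%. These matches describe letters in the windows and were not tested against the counts.

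In each line 4 of the 10 genes passed the threshold with alectinib, but not the same 4. In EA1 Klf2, Klf5, Klf9 and Klf10 fell and none rose. In EA2 Klf6, Klf10 and Klf11 rose and Klf5 fell. In EA3 Klf2, Klf4, Klf5 and Klf10 fell and none rose. The share of all tested genes called was 33.6% for EA1, 24.4% for EA2 and 32.6% for EA3, so 4 of 10 was near the background in each line. Split by direction, 19.0% of all genes rose and 14.6% fell in EA1, 13.0% rose and 11.3% fell in EA2, and 17.5% rose and 15.1% fell in EA3. The 10 genes had median log2 fold changes of -0.435, 0.274 and -0.177 in the 3 lines, beside 0.065, 0 and 0.067 for all genes tested. Klf3, Klf7 and Klf13 passed the threshold in none of the lines, but with each line fitted alone Klf3 (adjusted p = 0.0189) and Klf7 (adjusted p = 0.0191) passed in EA2, which made 6 members called there, in a fit that called 3950 of 12230 genes. The alectinib and DMSO ranges lay apart for 2 of the 10 genes in EA1, 4 in EA2 and 3 in EA3, beside 31.4%, 26.8% and 23.5% of all genes, and the daily ratio kept 1 sign on 4 of 4 days for 3, 6 and 4 genes, beside 49.3%, 46.8% and 43.5%. Klf5 and Klf10 passed it in all 3 lines, as did 10.2% of all genes. Klf5 fell in all 3, and 10.0% of all genes kept 1 direction in this way. Klf10 fell in EA1 and EA3 and rose in EA2, and 0.217% of all genes, 31 in number, were called in all lines with differing directions. Scaling by library size alone moved the median of all genes in EA3 from 0.067 to 0.1824 and the share of calls that were higher from 53.6% to 64.7%. In EA1 the median went from 0.065 to 0.155 and the share from 56.6% to 64.6%, and in EA2 from 0 to -0.0442 and from 53.5% to 48.3%. No member called in EA3 was lost by this scaling.

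**Figure D1:**
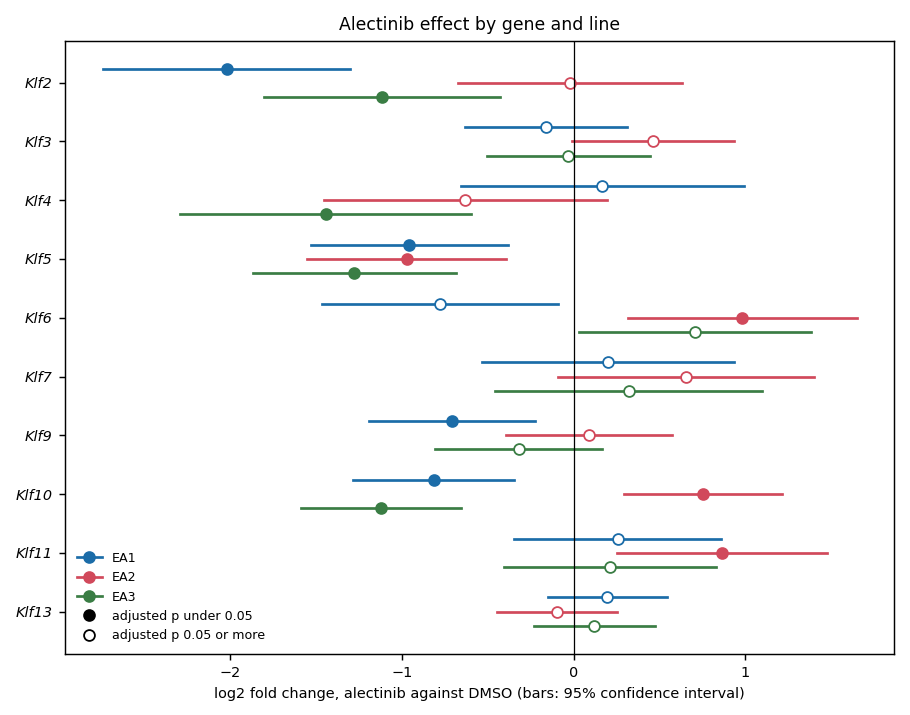
Log2 fold change of alectinib against DMSO for the 10 genes in EA1 (blue), EA2 (red) and EA3 (green) on the x axis, with 95% confidence intervals as bars and 4 days per treatment. Filled points have an adjusted p under 0.05, and Klf5 has 3 filled points left of 0 while Klf10 has filled points on both sides.

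A test of the difference itself, with 2 degrees of freedom, found that the alectinib effect differed between lines for Klf10, Klf2 and Klf6, 3 of the 10 genes, where 6.84% of all genes were called. The adjusted p was 0.0052 for Klf10, 0.0389 for Klf2 and 0.0497 for Klf6. Taken by pairs of lines, these 3 genes passed for EA2 against EA1, where 6.44% of all genes did, Klf10 alone passed for EA3 against EA2, where 2.86% did, and none passed for EA3 against EA1, where 1.79% did. Klf10 and Klf2 open their groups below, and Klf6 comes after Klf4 and Klf5. For the other 7 genes a difference in calls between lines is not shown to be a difference in effect.

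Klf10, also known as TIEG1, is an early TGF-beta response gene whose protein recruits SIN3A. In EA1 its DMSO level was 90.4, 131, 87.0 and 221 CPM on days 1, 2, 3 and 5 and its alectinib level 48.7, 76.1, 90.0 and 71.7 CPM. Alectinib was below DMSO on days 1, 2 and 5 and level with it on day 3, and the groups overlap. The log2 fold change was -0.82 (SE 0.22, 4 days per treatment) with an adjusted p of 0.0115. In EA2 the order was the other way. DMSO libraries held 86.9, 90.8, 130.3 and 89.5 CPM and alectinib libraries 130.4, 168, 218 and 155 CPM. Alectinib was above DMSO on each day, but day 1 with alectinib, at 130.37 CPM, was level with day 3 without it, at 130.32 CPM. The increase in EA2 was 0.75 (SE 0.21, adjusted p = 0.0198), with daily log2 ratios between 0.59 and 0.89. In EA3 the DMSO level was 91.7, 91.8, 107 and 219 CPM and the alectinib level 54.3, 54.0, 39.6 and 76.0 CPM, with no overlap. Klf10 fell there by 1.12 on the log2 scale (SE 0.22, adjusted p = 0.00178).

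The effect on Klf10 in EA2 exceeded that in EA1 by 1.57 (95% interval 0.91 to 2.23, adjusted p = 0.0102). The effect in EA3 lay below that in EA2 by a log2 difference of -1.87 (interval -2.53 to -1.22, adjusted p = 0.00635). EA3 and EA1 were not separated, with a difference of -0.31 and an interval from -0.96 to 0.35. The DMSO level of Klf10 did not separate the lines, with means of 132 ± 62.5 CPM in EA1, 99.4 ± 20.7 in EA2 and 127 ± 61.6 in EA3 (SD, n = 4) and an adjusted p of 0.477 in edgeR's test, where 55.6% of all genes differed. The difference in effect between lines held with each day left out, with adjusted p between 0.0204 and 0.0262. The call in EA1 was lost without day 1 (adjusted p = 0.0526) or day 5 (-0.59, adjusted p = 0.0572), and that in EA2 without day 1 (adjusted p = 0.0554) or day 2 (adjusted p = 0.085). The EA2 call was also lost without blocks of line and day (adjusted p = 0.0859) and with all 26 libraries (adjusted p = 0.0581). Over the 12 ratios of alectinib to DMSO (3 lines, 4 days), the genes whose ratios were most like those of Klf10 among 9361 compared were Pparg, with a Pearson r of 0.964, and Mkrn2, with 0.943. Such ratios share lines and DMSO libraries and are given as a description.

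Klf11, also known as TIEG2, is the nearest relative of Klf10 in the SIN3A-binding group. In EA2 its DMSO level was 7.61, 8.62, 17.2 and 15.6 CPM and its alectinib level 17.9, 18.0, 30.2 and 20.5 CPM. The groups did not overlap, but the highest DMSO library, at 17.2 CPM, was close to the lowest alectinib library. The log2 fold change was 0.86 (SE 0.28, adjusted p = 0.0401). The call was lost without day 1 (adjusted p = 0.0881), day 2 (adjusted p = 0.156) or day 5 (adjusted p = 0.0705). In EA1 and EA3 the values were 0.26 and 0.21 with adjusted p of 0.499 and 0.607, and the effect was not shown to differ between lines (adjusted p = 0.433).

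Klf9, a SIN3A-binding repressor that glucocorticoids and the daily clock induce in many tissues, was called in EA1. Its DMSO level there was 56.8, 86.7, 173 and 115 CPM and its alectinib level 51.4, 55.7, 75.0 and 64.6 CPM. Alectinib lay below DMSO on all 4 days, by little on day 1 and most on day 3, and the ranges overlap. Klf9 fell by 0.71 on the log2 scale (SE 0.22, adjusted p = 0.0266), a call lost without day 3 (adjusted p = 0.102) or day 5 (adjusted p = 0.078). The fold changes in EA2 and EA3, 0.088 and -0.32, did not pass the threshold (adjusted p = 0.816 and 0.297). Both lines were higher with alectinib on 2 days and lower on 2.

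Klf13, a SIN3A-binding factor known for its part in cytokine expression in lymphocytes, was called in no line. Its fold changes were 0.20 in EA1, -0.096 in EA2 and 0.12 in EA3. None passed the threshold (adjusted p = 0.361, 0.708 and 0.607), and the 95% intervals together ran from -0.44 to 0.54. Its level ran from 136 to 185 CPM in EA1 DMSO and from 166 to 209 with alectinib, from 73.4 to 103 and 70.3 to 89.7 in EA2, and from 46.1 to 117 and 63.1 to 92.8 in EA3, so the treatments overlapped in each line.

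**Figure D2:**
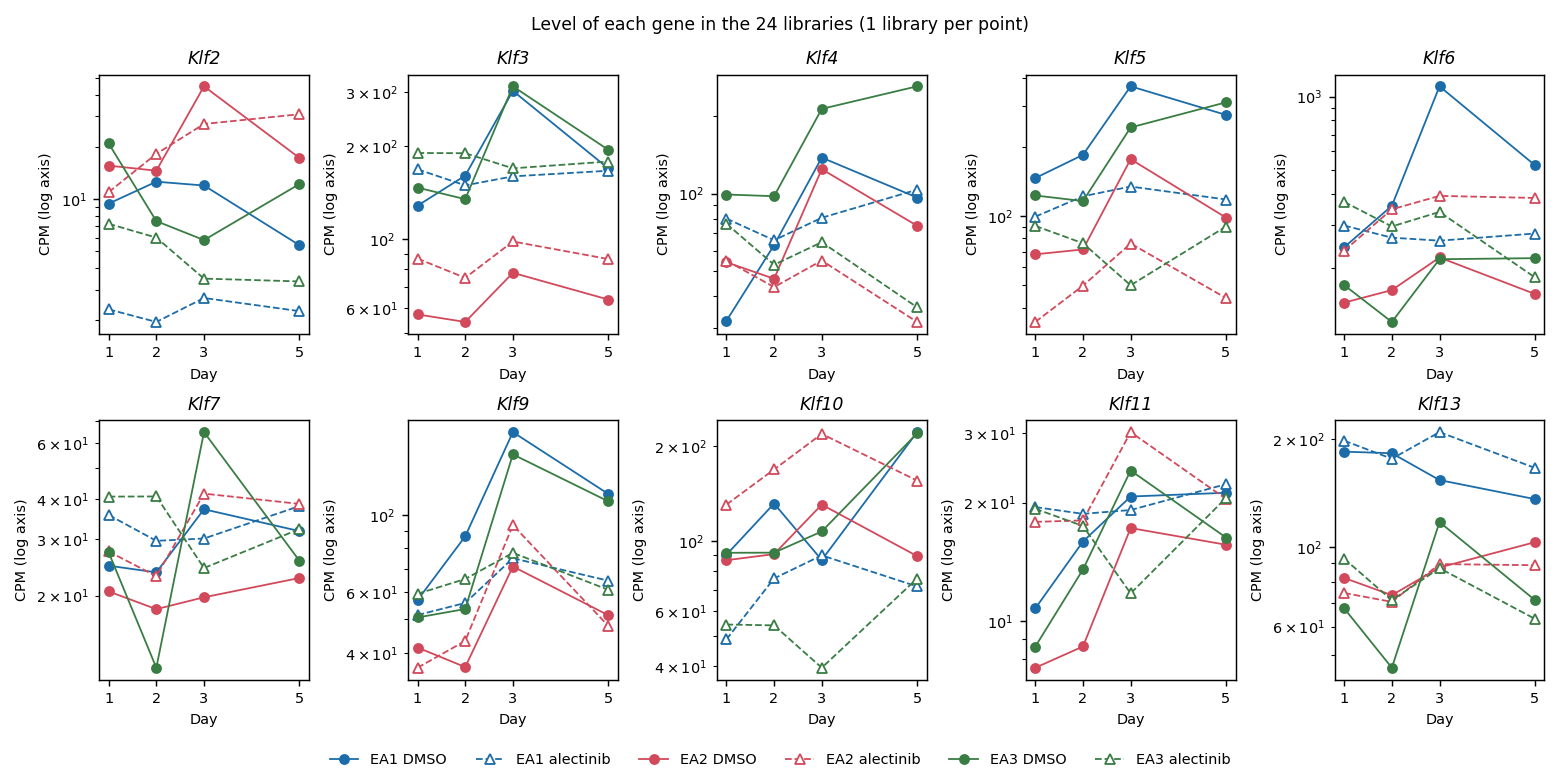
CPM of each gene (y axis, log scale, its own range in each panel) against day (x axis) in the 24 libraries, with filled circles for DMSO, open triangles for alectinib and a color per line. In the Klf10 panel each EA2 triangle lies above the EA2 circle of its day, and the 4 EA3 triangles lie below the EA3 circles.

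Klf2, which keeps lymphocytes and endothelium quiescent, showed the largest fall among the 30 member and line values. In EA1 its DMSO libraries held 9.41, 12.6, 11.97 and 5.43 CPM and its alectinib libraries 2.32, 1.96, 2.69 and 2.26 CPM. The alectinib libraries were all below the lowest DMSO library and rested on 16 to 27 counts each. The log2 fold change was -2.02 (SE 0.335, adjusted p = 0.000635), that is 4.06-fold lower, and it stayed past the threshold with each day left out (-2.31 to -1.897). In EA3 the DMSO level was 20.9, 7.46, 5.81 and 12.2 CPM and the alectinib level 7.21, 5.998, 3.48 and 3.35 CPM. Alectinib was lower on each of the 4 days, but days 1 and 2 with alectinib stood above day 3 without it. Klf2 fell in EA3 by 1.12 on the log2 scale (SE 0.32, adjusted p = 0.0168), and the call was lost without day 1 (adjusted p = 0.0985) or day 5 (adjusted p = 0.0561).

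EA2 had the highest mean level of Klf2 and showed no such fall. Its DMSO level was 15.6, 14.6, 44.6 and 17.3 CPM and its alectinib level 11.0, 18.2, 27.1 and 30.8 CPM, with alectinib higher on 2 days and lower on 2. The log2 fold change was -0.023, with a 95% interval from -0.67 to 0.63 and an adjusted p of 0.975. The effect in EA2 exceeded that in EA1 by 2.00 (interval 1.03 to 2.97, adjusted p = 0.0199), while EA3 was not separated from EA1 (0.90, interval -0.081 to 1.89) or from EA2 (-1.10, interval -2.04 to -0.15, adjusted p = 0.203). The test over the 3 lines passed narrowly, and its adjusted p rose to between 0.0678 and 0.122 when a day was left out. The summed level of the endothelial markers Pecam1, Cdh5, Kdr and Tek, cells known for high Klf2, was 1.81 to 3.90 CPM in EA1 DMSO and 3.55 to 6.73 with alectinib, 1.97 to 5.71 and 0.177 to 1.02 in EA2, and 1.88 to 9.39 and 2.06 to 5.34 in EA3. Their part in the Klf2 result was not tested.

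Klf4, a factor of epithelial differentiation and of pluripotency, was called in EA3 alone. Its DMSO level there was 99.2, 97.7, 214 and 261 CPM and its alectinib level 76.4, 52.9, 64.7 and 36.1 CPM. No alectinib library reached the lowest DMSO library, and the gap was widest on day 5. The log2 fold change was -1.45 (SE 0.39, adjusted p = 0.0131), or 2.72-fold lower. Without day 3 or day 5 the adjusted p was 0.0542 or 0.0904, and without day 5 the value was -0.99. In EA1 the fold change was 0.17 (interval -0.66 to 0.99) and in EA2 -0.63 (interval -1.46 to 0.19), and the difference between lines did not pass the threshold (adjusted p = 0.167), though it did with no filter on low counts (adjusted p = 1.73e-05). EA1 DMSO on day 1, at 32.0 CPM, was below the 80.0 CPM of its alectinib partner, whereas on day 3 DMSO was higher, at 138 against 80.6 CPM.

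Klf5, which drives growth and maturation in epithelia including the lung, was lower with alectinib on every day in every line. In EA1 DMSO libraries held 146, 185, 367 and 276 CPM and alectinib libraries 99.5, 122, 135 and 118 CPM. In EA2 they held 68.2, 71.6, 177 and 98.6 CPM against 34.7, 49.8, 76.0 and 44.1 CPM. In EA3 they held 123, 116, 243 and 313 CPM against 90.7, 76.2, 50.1 and 90.1 CPM. The groups did not overlap in EA1 and EA3, and in EA2 they overlapped only through day 3 with alectinib, at 76.0 CPM. Klf5 fell in EA1, with a log2 fold change of -0.96 (SE 0.27, adjusted p = 0.0144). The fall was -0.97 (SE 0.27, adjusted p = 0.0174) for EA2 and -1.28 (SE 0.28, adjusted p = 0.00347) for EA3. The smallest of the 12 daily falls was in EA3 on day 1, at -0.44, and the largest in EA3 on day 3, at -2.27.

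A difference in the Klf5 effect between lines was not detected (adjusted p = 0.779), and the pairwise differences had intervals of -0.82 to 0.79 for EA2 against EA1, -1.14 to 0.50 for EA3 against EA1 and -1.12 to 0.52 for EA3 against EA2. The fall in EA3 stayed past the threshold with each day left out, while that in EA1 (adjusted p = 0.0623) and that in EA2 (adjusted p = 0.0784) were lost without day 5. The summed level of the 5 epithelial markers ran from 4633 to 9252 CPM in EA1 DMSO and 3245 to 5367 with alectinib, from 1811 to 2695 and 567 to 1169 in EA2, and from 4633 to 6680 and 2950 to 6655 in EA3, so it was lower with alectinib in EA2 without overlap and overlapped in EA1 and EA3. The 5 markers did not move alike. Krt18 was lower with alectinib without overlap in each line, at 1335 to 2502 CPM in EA1 DMSO and 490.0 to 1089 with alectinib, 1295 to 2003 and 238 to 609 in EA2, and 1403 to 1911 and 440.2 to 1033 in EA3. Krt8 was lower without overlap in EA2, at 215 to 295 and 10.3 to 72.3 CPM, and overlapped in EA1 and EA3, and Krt19 overlapped in each line. Cdh1 was higher without overlap in EA2, at 44.9 to 96.9 and 147 to 277 CPM, and overlapped in EA1 and EA3. Epcam was higher without overlap in EA1, at 0.321 to 3.23 and 4.69 to 7.77 CPM, lower in EA2, at 0.301 to 0.627 CPM and 0, and overlapped in EA3, at 75.2 to 211 and 88.5 to 146 CPM. The part of these shifts in the Klf5 result was not tested.

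Klf6, a widely expressed activator with growth-restraining roles, had the highest level of the 10 genes per length in EA1 and EA2, and its values had opposite signs between those lines. In EA2 DMSO libraries held 145, 163, 221 and 157 CPM and alectinib libraries 235, 347, 394 and 386 CPM, with no overlap. The log2 fold change was 0.98 (SE 0.31, adjusted p = 0.0336), lost without day 2 (adjusted p = 0.117) or day 5 (adjusted p = 0.111). In EA1 the DMSO level was 243, 359, 1101 and 525 CPM while the alectinib level stayed between 259 and 298 CPM. The EA1 value was -0.78 (interval -1.47 to -0.092, adjusted p = 0.0749), with the highest DMSO level on day 3. It was -0.39 without day 3 (adjusted p = 0.388) and passed the threshold without day 1 (-1.14, adjusted p = 0.0271). In EA3 alectinib was higher on days 1 to 3 and lower on day 5, at 372, 296, 339 and 183 CPM against 171, 121, 217 and 219.6 CPM, and the value was 0.71 (adjusted p = 0.102). The effect in EA2 exceeded that in EA1 by 1.76 (interval 0.80 to 2.72, adjusted p = 0.034). The test over the 3 lines passed only narrowly, and without day 2, 3 or 5 its adjusted p was 0.125, 0.196 or 0.137. Dusp8, a phosphatase of MAP kinases, and Iars had the ratios most like those of Klf6, with r of 0.969 and 0.963 over the 12 ratios.

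Klf7 is an activator known from neurons and fat cells. It was not called in the fit of all lines, but in EA2 the 4 alectinib libraries, at 27.5, 23.0, 41.6 and 38.7 CPM, all lay above the 4 DMSO libraries, at 20.6, 18.1, 19.7 and 22.7 CPM. The value was 0.65 (interval -0.089 to 1.399, adjusted p = 0.194). In EA1 and EA3 the values were 0.20 and 0.32. The EA3 DMSO libraries spread from 11.9 CPM on day 2 to 64.8 CPM on day 3, the widest range of Klf7. Over a part of its exons, 39.3% of the bases, Klf7 lies opposite the noncoding gene Gm26649, which had 0 counts in the 24 libraries.

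The DMSO level of Klf3, the CtBP-binding repressor of the set, was lower in EA2 than in EA1 and EA3. Klf3 was not called with alectinib in the fit of all lines. In EA2 it was higher with alectinib on all 4 days, at 86.7, 75.1, 98.5 and 86.4 CPM against 57.2, 54.1, 78.0 and 63.9 CPM, with a log2 value of 0.46 (interval -0.012 to 0.93, adjusted p = 0.15). The values in EA1 and EA3 were -0.16 and -0.032. In both of these lines the day 3 DMSO library was the highest, at 302 and 313 CPM, against 160 and 170 CPM with alectinib on that day.

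**Figure D3:**
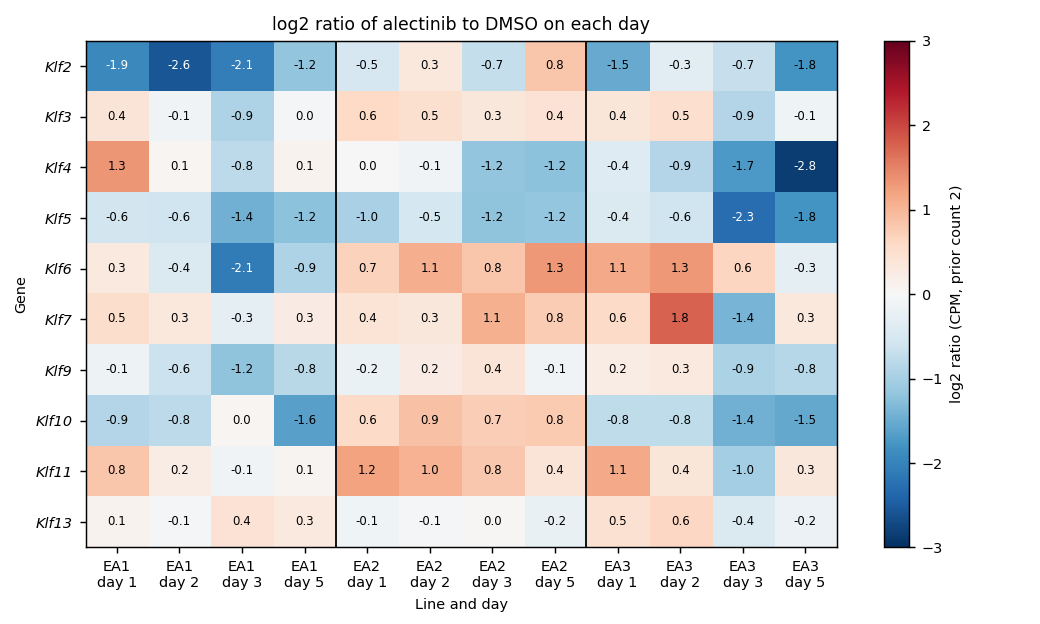
Log2 ratio of alectinib to DMSO (log2 CPM, prior count 2) for each gene (rows) in each line and day (columns), in blue below 0 and red above 0, 1 library per treatment in each cell. The Klf5 row is blue in all 12 cells, and the Klf10 row is red in the 4 EA2 cells and blue in the 4 EA3 cells.

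The size of the alectinib effect was also tested for a change with culture time, as the change of the log2 ratio per doubling of days. None of the 10 genes passed the threshold in any line, where 0.0210%, 0.00% and 0.0491% of all genes did in EA1, EA2 and EA3. The smallest adjusted p was 0.393, 0.797 and 0.136, and 2, 1 and 3 members had an unadjusted p under 0.05, beside 11.5%, 6.03% and 13.2% of all genes. The change was below 0 for 8, 5 and 10 of the 10 genes, beside 50.8%, 49.5% and 49% of all genes. Klf4 in EA3 had the smallest p, with -1.07 per doubling (SE 0.26, adjusted p = 0.136), as its ratio went from -0.38 on day 1 to -2.85 on day 5. Klf5 in EA3 followed, with -0.73 per doubling (SE 0.24, adjusted p = 0.235).

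In DMSO alone most of the 10 genes had a positive change per doubling of days, 8 in EA1, 10 in EA2 and 9 in EA3, beside 52.3%, 48.4% and 52% of the genes tested. None passed the threshold in edgeR's test, where 1.83% of 12886 genes did in EA1, 0.00% in EA2 and 6.10% in EA3. The smallest adjusted p was 0.202 in EA1, for Klf4 at 0.83 per doubling, and 0.146 in EA3, for Klf10 at 0.52, while in EA2 each was 1. The count of members with an unadjusted p under 0.05 was 3, 1 and 4 in EA1, EA2 and EA3, where 17.1%, 1.91% and 23.4% of the genes had one.

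Many of the genes reached their top level on day 3. In DMSO this was so for 6 members in EA1, for 8 in EA2 and for 5 in EA3, where 23.6%, 30.3% and 23.6% of all genes did. Klf3 and Klf9 were highest on day 3 in DMSO in all 3 lines, as were 4.12% of all genes. With alectinib day 3 held the highest level of 5 genes in EA1, 9 genes in EA2 and 1 gene in EA3, beside 19.6%, 28.8% and 21.5% of all genes. Klf9 shows the pattern plainly, with 173 CPM on day 3 in EA1 DMSO, 71.0 in EA2 and 149 in EA3, each above the 115, 51.4 and 109 CPM of day 5. With 1 library per line, treatment and day, a day and its library cannot be told apart.

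The DMSO level differed between lines for Klf3, Klf4, Klf5, Klf6, Klf9 and Klf13, 6 of the 10 genes, where 55.6% of 12886 genes differed. Klf3 was lower in EA2, with a mean of 63.3 ± 10.6 CPM against 190.3 ± 76.6 in EA1 and 197 ± 81.0 in EA3 (SD, n = 4). Its log2 difference of EA2 from EA1 was -1.56 (SE 0.17) and that of EA3 from EA2 was 1.61 (SE 0.17), with adjusted p of 1.82e-05 and 1.69e-05 in edgeR's test, and EA3 was not separated from EA1 (0.046, adjusted p = 0.857). EA2 was the lowest line for Klf5 as well, at 104 ± 50.6 CPM against 243 ± 98.6 and 199 ± 95.7, and for Klf9, at 50.1 ± 15.3 against 108 ± 49.6 and 90.7 ± 47.5. The EA2 difference from EA1 was -1.28 for Klf5 (adjusted p = 0.000266) and -1.07 for Klf9 (adjusted p = 0.000752).

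Klf4 was highest in EA3, at 168 ± 82.6 CPM against 82.4 ± 45.5 in EA1 and 75.1 ± 35.1 in EA2, a log2 difference of 1.07 from EA1 (adjusted p = 0.00364) and 1.17 from EA2 (adjusted p = 0.00186). Klf6 and Klf13 were highest in EA1. The log2 differences of EA2 and EA3 from EA1 were -1.56 and -1.45 for Klf6 (adjusted p = 0.000674 and 0.00155) and -0.98 and -1.19 for Klf13 (adjusted p = 0.00499 and 0.00211). Klf2, Klf7, Klf10 and Klf11 did not pass the test over lines, with adjusted p of 0.0921, 0.219, 0.477 and 0.0719. By pairs, 6 of the 10 differed for EA2 against EA1, where 40.8% of genes did, 3 for EA3 against EA1, where 32.6% did, and 4 for EA3 against EA2, where 36.5% did. The 6 for EA2 against EA1 included Klf11 (-0.55, adjusted p = 0.0396) and not Klf4 (adjusted p = 0.765).

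**Figure D4:**
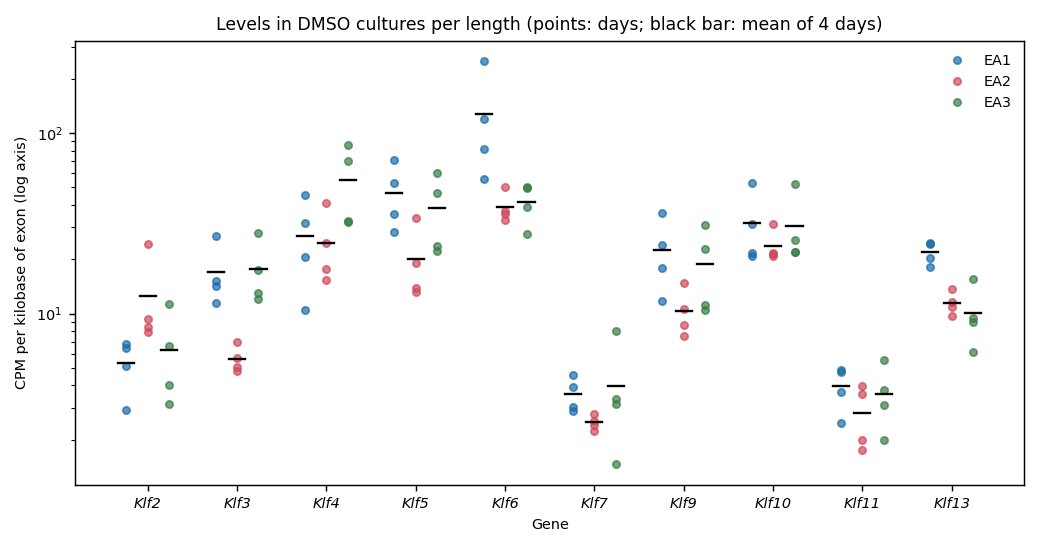
CPM per kilobase of exon (y axis, log scale) of the 10 genes in DMSO, with 4 days as points for each line and their mean as a black bar. Klf6 in EA1 is the highest mean at 127, and Klf7 and Klf11 lie lowest in each line.

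Compared per length of exon in DMSO, Klf6 was the highest of the 10 in EA1 and EA2, with a mean of 127 CPM per kilobase in EA1 and 39.0 in EA2, and Klf4 was the highest in EA3 at 55.1, above Klf6 at 41.5. Klf7 and Klf11 were the lowest in each line, between 2.50 and 3.99 CPM per kilobase. Klf2, the gene with the deepest fall, lay at 5.33, 12.5 and 6.28 in EA1, EA2 and EA3.

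When the 6 groups of a gene are put in order of their mean CPM, most neighbours overlap. For Klf2 the order was EA2 DMSO, EA2 alectinib, EA3 DMSO, EA1 DMSO, EA3 alectinib and EA1 alectinib, and only the last pair, 5.01 ± 1.904 and 2.31 ± 0.30 CPM (SD, n = 4), had ranges apart. For Klf3 EA3 alectinib lay above EA1 alectinib and this above EA2 alectinib without overlap, at means of 182, 161 and 86.7 CPM. For Klf6 EA1 alectinib, at 275 CPM, lay above EA3 DMSO, at 182 CPM, and for Klf7 and Klf13 EA1 DMSO lay above EA2 DMSO. All neighbours overlapped for Klf4, Klf5, Klf9, Klf10 and Klf11.

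Of 7 further family genes, 3 had enough counts to test, and Klf8 and Klf16 passed in at least 1 line. By line, 1, 0 and 2 of the 3 were called in EA1, EA2 and EA3, where 33.6%, 24.4% and 32.6% of all genes were. Klf8, a CtBP-binding relative of Klf3, rose in EA3, from 7 counts summed over 4 DMSO libraries (0 to 4 each) to 106 with alectinib (11 to 39 each), a ratio of 12.7 after scaling to library size (exact 95% interval 5.94 to 32.3 for counting error alone) and an adjusted p of 0.00116. Klf16, a SIN3A-binding relative of Klf13, fell by 0.79 on the log2 scale in EA1 (adjusted p = 0.00338) and by 0.77 in EA3 (adjusted p = 0.00374), and was at -0.13 in EA2 (adjusted p = 0.618). The median log2 fold change of the 3 tested genes was -0.79, -0.13 and -0.55 in EA1, EA2 and EA3, beside 0.065, 0 and 0.067 for all genes.

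Of 9 genes of the SP family 6 were tested. None rose in any line, where 19.0%, 13.0% and 17.5% of all genes rose in EA1, EA2 and EA3. In EA1 1 fell, where 14.6% of all genes did, and in EA2 2 fell, where 11.3% did. None was called in EA3, where 32.6% of all genes were. Sp2 fell by 0.43 in EA1 (adjusted p = 0.0294) and by 0.47 in EA2 (adjusted p = 0.0252). Sp5, a Wnt target, went from 49 counts over the EA2 DMSO libraries to 9 with alectinib, a ratio of 0.216 (exact 95% interval 0.0934 to 0.445 for counting error), with an adjusted p of 0.0197. The medians of the 6 genes were -0.22, 0.20 and 0.14 in EA1, EA2 and EA3, beside 0.065, 0 and 0.067 for all genes.

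Corepressors and coactivators that KLF proteins bind were mostly not called. Of 9 genes, all tested, Kat2b alone passed, that is 1 of 9 in each line where 33.6%, 24.4% and 32.6% of all genes were called. It rose in each line, by 0.87, 0.91 and 1.18 in EA1, EA2 and EA3 (adjusted p = 0.00266, 0.00266 and 0.000377). Kat2b encodes the acetyltransferase PCAF. None of Ctbp1, Ctbp2, Sin3a and Sin3b was called, and the medians of the 9 genes were 0.0772, 0.0903 and -0.0202 in EA1, EA2 and EA3. The ERK5 and MEF2 route is known to induce Klf2 and Klf4. Among 5 genes of this route none passed in EA1. Mef2d rose by 0.42 in EA2 (adjusted p = 0.0321) and Mef2a by 0.51 in EA3 (adjusted p = 0.0266). A relation of these genes to Klf2 and Klf4 was not tested. The medians of these 5 genes were -0.0646, -0.00639 and 0.000417. Of 4 ubiquitin ligases that act on KLF proteins, Wwp1, a ligase of Klf2 and Klf5, fell by 0.72 in EA1 (adjusted p = 0.00835) and Siah1a rose by 0.57 in EA2 (adjusted p = 0.0149), with medians over the 4 genes of -0.177, 0.0363 and -0.17.

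Of 10 genes known as KLF targets 8 were tested. In EA1 1 rose and 2 fell, in EA2 1 rose and 1 fell, and in EA3 3 fell, that is 3, 2 and 3 of 8 called where 33.6%, 24.4% and 32.6% of all genes were. The medians were -0.57, -0.28 and -0.98, beside 0.065, 0 and 0.067 for all genes. S1pr1, a sphingosine receptor that Klf2 activates in lymphocytes, rose by 3.12 in EA1 (adjusted p = 0.000245). It went from 2 to 11 counts per library in EA1 DMSO to 31 to 121 with alectinib. In EA3 S1pr1 fell by 2.34 (adjusted p = 0.000795), from 4.49 to 22.8 CPM to 1.85 to 3.46 CPM, and in EA2 the value was 0.51 (adjusted p = 0.375). The difference between lines passed the threshold (adjusted p = 0.000872). A relation of S1pr1 to Klf2 was not tested. Ccnd1, a G1 cyclin, fell in each line, with log2 values of -0.77, -1.89 and -0.94 (adjusted p = 0.0244, 0.000111 and 0.0101). Cdkn1a, the p21 inhibitor and a Trp53 target, fell in EA3, with a log2 value of -2.10 (adjusted p = 0.0116). Its values in EA1 and EA2, -0.89 and -1.54, did not pass (adjusted p = 0.189 and 0.0544).

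Because Klf9 and Klf10 are known to follow the clock and Klf9 the glucocorticoid receptor, these lists were counted too. Of 11 clock and clock output genes 10 were tested, and 1 rose and 2 fell in EA1, 3 rose and 1 fell in EA2, and 1 rose and 3 fell in EA3, with medians of -0.54, -0.24 and -0.97. The 3, 4 and 4 of 10 called were near the share of all genes, 33.6%, 24.4% and 32.6%, and the medians lay below those of all genes, 0.065, 0 and 0.067. Ciart fell in each line, with log2 values of -3.23, -1.22 and -1.79 (adjusted p = 4.78e-06, 0.0022 and 0.000134). Tef rose in each line, by 0.67, 0.99 and 0.60 (adjusted p = 0.00747, 0.000847 and 0.0148), and Bhlhe41 fell in EA3 (-1.38, adjusted p = 0.0204). Of 5 glucocorticoid receptor targets 4 were tested, with 1 higher and 1 lower in EA1, 2 higher and 1 lower in EA2 and 1 lower in EA3, and medians of 0.20, 0.68 and -0.37, beside the same shares and medians of all genes. Fkbp5 fell in each line, at -0.53, -0.76 and -0.96 (adjusted p = 0.0193, 0.00309 and 0.000523), while Sgk1 rose by 0.76 in EA1 (adjusted p = 0.0139) and 0.99 in EA2 (adjusted p = 0.00359) and was at 0.58 in EA3 (adjusted p = 0.0534). Per1, which is in both lists, rose in EA2 by 1.14 (adjusted p = 0.0298).

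The ratios of the members to each other over the 12 line and day pairs were alike for some pairs and not for others. The highest Pearson r was 0.854, for Klf3 and Klf9. Next were Klf3 and Klf11 at 0.848, Klf6 and Klf9 at 0.818, Klf3 and Klf7 at 0.791 and Klf5 and Klf11 at 0.752. Klf2 and Klf5 were at 0.000947, and the lowest were Klf2 and Klf13 at -0.24 and Klf6 and Klf13 at -0.2. Outside the family, the nearest genes were Nup62 for Klf2 (0.932), Nfe2l1 for Klf3 (0.935), Clip2 for Klf4 (0.922), Zbtb7b for Klf5 (0.901), Sos1 for Klf7 (0.923), Sos2 for Klf9 (0.951), Pnpla8 for Klf11 (0.921) and Ahnak2 for Klf13 (0.862). The points of each r share their lines and days and are not independent, so no p is given.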

How the data were processed

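RNA from the EA1, EA2 and EA3 lines was sequenced in 26 libraries, of which the 24 of days 1, 2, 3 and 5 were compared, and the 2 labelled EA3 day 7 were used only as described in the closing section. The authors checked reads with FastQC, trimmed them with bbduk, aligned them to mm10 with STAR and deposited raw counts per gene from the counter of STAR, in a stranded TruSeq mRNA protocol. The annotation release and the strand setting are not given in the sources used here. Of 55415 table rows, 24 named by date-like numbers, which held 0.129% to 0.201% of the counts of a library, were left out.

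Counts were fitted with edgeR 4.0.16 (R 4.3.3): filterByExpr by line and treatment, TMM factors (0.889 to 1.09), 12 blocks of line and day, an alectinib effect per line, robust quasi-likelihood F tests and Benjamini-Hochberg adjustment. Standard errors were computed from the fold change and F. DMSO levels were fitted on the 12 DMSO libraries alone, with day as a block for differences between lines. Likeness used log2 CPM with a prior count of 2. Exon lengths and overlaps came from GENCODE vM21 (GRCm38), and promoters and motifs from a RefSeq table of GRCm38.p6. Named genes were the 10 members and, from each list, at most 3 called genes with the largest mean size of log2 fold change over the lines, and for likeness the nearest genes with an average log2 CPM of at least 3. The members and the lists were chosen with earlier results of these data known. On simulated counts with 200 genes changed by 2 on the log2 scale, the EA1 test recovered 193 and called 5 of 13631 unchanged genes, and the test between lines recovered 173. Genes given no change had the same mean in all lines and days, unlike the data. Of the member calls in a line only that of Klf2 in EA1 was as large as 2, so the recovery does not carry over to the others. Alternatives were other scalings and filters, DESeq2 1.42.0, no block, all 26 libraries, each line alone, and each day left out. Intervals of summed counts cover counting error only.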

Additional observations from a re-analysis of the deposited data

Results flagged for a closer look

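Of 60 groups of 4 libraries (10 genes in 6 groups), 3 had a library far from the others, and chance gives about 1 such group in 20. Klf2 in EA2 DMSO reached 44.6 CPM on day 3, against 14.6 to 17.3 on the other days. Klf10 in EA2 DMSO reached 130.3 CPM on day 3, against 86.9 to 90.8. Klf10 in EA3 DMSO reached 219 CPM on day 5, against 91.7 to 107. All of these lie in DMSO libraries, and the library and the day cannot be told apart. The Klf10 call in EA2 held without day 3, and that in EA3 held without day 5.

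The alectinib effect differed between lines for Klf10 (adjusted p = 0.0052), Klf2 (adjusted p = 0.0389) and Klf6 (adjusted p = 0.0497) in edgeR's quasi-likelihood test. Klf10 was higher on 4 of 4 days in EA2 and was lower on 4 of 4 days in EA3 and 3 of 4 in EA1. Klf2 was lower on 4 of 4 days in EA1 and EA3 and on 2 of 4 in EA2. Klf6 was higher on 4 of 4 days in EA2, on 3 of 4 in EA3 and on 1 of 4 in EA1.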

How the results depend on the processing

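Of the 12 calls of a member in a line, 3 (Klf2 in EA1, Klf5 and Klf10 in EA3) stayed past the threshold under all 12 alternatives, and no call reversed. Of the 3 differences between lines, that of Klf10 held under all 11. Of 470 alternative values for members, 409 kept direction and side of the threshold. The days pair the libraries only by number: deviations of DMSO and alectinib libraries of the same line and day correlated between -0.300 and 0.549. Without the replicate block 2 members were called in EA2 in place of 4, as Klf10 (adjusted p = 0.0859) and Klf11 (adjusted p = 0.0612) were lost, Klf9 in EA1 was lost (adjusted p = 0.0838), Klf6 in EA1 was called (-1.02, adjusted p = 0.0217), and the difference between lines of Klf2 was lost (adjusted p = 0.109). With all 26 libraries 1 member was called in EA2 and 1 between lines, and Klf2 in EA3 was lost (adjusted p = 0.0762). The difference between lines was also lost for Klf6 with DESeq2 size factors (adjusted p = 0.0561) and for Klf2 with library size alone (adjusted p = 0.0531), while Klf6 passed in EA1 with DESeq2 (adjusted p = 0.0367) and in EA3 with library size alone (adjusted p = 0.0449). With a log2 size of at least 1 required, 2515, 1891 and 2425 genes were called in EA1, EA2 and EA3, and 1, 0 and 4 members were among them. With each line fitted alone 6 members passed in EA2, where 3950 of 12230 genes did, Klf3 (adjusted p = 0.0189) and Klf7 (adjusted p = 0.0191) among them.

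Values that reversed were of genes not called in the line concerned. With all 26 libraries they were Klf11 (-0.021) and Klf13 (-0.11) in EA3, and with library size alone Klf3 in EA3 (0.084). With each day left out, the log2 fold change ran from -0.11 to 0.60 for Klf11, -0.090 to 0.28 for Klf13, -0.25 to 0.22 for Klf3 and -0.20 to 0.86 for Klf7 in EA3, from -0.32 to 0.22 for Klf2 and -0.021 to 0.18 for Klf9 in EA2, and from -0.35 to 0.051 for Klf3 and -0.20 to 0.45 for Klf4 in EA1. Klf7 in EA3 passed the threshold without day 3 (adjusted p = 0.0316). The cause was not tested.

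With no filter on low counts 4 members differed between lines, Klf4 among them (adjusted p = 1.73e-05), and Klf4 (adjusted p = 0.0227) and Klf7 (adjusted p = 0.0362) passed in EA2, Klf6 in EA1 (adjusted p = 0.000293) and Klf6 in EA3 (adjusted p = 0.00518). In that fit 2698 genes differed between lines, 51, 21 and 78 had an alectinib effect that changed with days, and 824, 25 and 1496 changed in DMSO with days in EA1, EA2 and EA3, with 1 member in EA1 and 2 in EA3. DESeq2 called 1955 genes between lines and the fit of 26 libraries 398. With library size alone 1 gene in EA1 and 3 in EA3 had an effect that changed with days, where 3 and 7 did as reported. With each day left out, the genes called were 2796 to 4088 in EA1, 2142 to 2654 in EA2, 2836 to 3889 in EA3 and 211 to 792 between lines. The effect changed with days for 0 to 45 genes in EA1, 0 to 1 in EA2 and 0 to 78 in EA3, and the DMSO level for 0 to 764, 0 to 2 and 0 to 1737. Members called with a day left out numbered 1 to 4 in EA1, 1 to 4 in EA2, 2 to 4 in EA3, 1 to 2 between lines and 0 to 4 for the DMSO change with days in EA3, where the 4 came without day 3. Klf2 in EA1 with alectinib rested on 16 to 27 counts per library.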

Other observations

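The 2 libraries labelled EA3 day 7 correlated more closely with EA2 than with the other EA3 libraries over genes: 0.942 to 0.977 with EA2, 0.857 to 0.889 with EA3 and 0.863 to 0.887 with EA1 for the DMSO library, and 0.96 to 0.988, 0.852 to 0.871 and 0.834 to 0.86 for the alectinib library. They were left out of the comparisons. In them Klf5 was at 188 CPM with DMSO and 17.5 with alectinib, a log2 ratio of -3.43, and Klf4 at 131 and 33.0 CPM, a ratio of -1.99. Klf9 was at 101 and 39.7 CPM (-1.35). Klf10, with 89.8 and 103 CPM, had a ratio of 0.20, and Klf6, with 293 and 305 CPM, of 0.06. Klf2 was at 27.6 and 37.9 CPM (0.46). The remaining ratios were -0.73 for Klf3, -0.53 for Klf7, -0.73 for Klf11 and -0.84 for Klf13. With 1 library per treatment these values have no replicate check.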
